A study of Caenorhabditis elegans with 2 samples.

Results

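The *Caenorhabditis elegans* HSP70 family genes *hsp-1*, *hsp-3*, *hsp-4*, *hsp-6*, *hsp-70*, *hsp-110*, *F44E5.4* and *F44E5.5*, together with the chaperonin gene *hsp-60*, were examined for regions recovered with the forkhead transcription factor FKH-3. These 9 genes are 9 of the 19985 protein-coding genes of the Ensembl annotation of WBcel235 (ce11) and were taken by symbol, all 9 of which matched. They had been picked with the signal ranks of these same lists known, so the ranks below describe them and no test is made on them. A region was assigned to a gene when its summit lay from 1000 bp upstream to 200 bp downstream of any annotated transcript start, called the start window here, or inside the gene. The data are ChIP-seq of whole young adult worms, pooled males and females, collected 63 h after L1 animals that had been bleached and starved were released. The strain was OP594, with the genotype unc-119(tm4063) III; wgIs594, a single transgenic line that stably carries FKH-3 fused to GFP and FLAG at its C terminus, and an antibody against GFP was used. All animals carried the unc-119 allele and the transgene, and there was 1 group of 2 biological replicates. The promoter of the transgene is not given in the sources used here.

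HSP70 proteins bind exposed hydrophobic stretches of unfolded polypeptides in cycles of ATP hydrolysis, and chaperonins of the HSP60 type enclose unfolded proteins in a barrel. Eukaryotic cells keep separate HSP70s in the cytosol, the endoplasmic reticulum (ER) and the mitochondrion. Some are made at all times. Others are made mainly under stress, through the heat shock factor HSF-1 for cytosolic genes, the ER unfolded protein response for *hsp-4*, and the mitochondrial unfolded protein response for *hsp-6* and *hsp-60*, which are also made without stress.

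Replicate 1, replicate 2 and the pooled replicates each had a list of 30000 regions, peaks and background together. A further list gave the 441 pooled regions kept at the threshold on the irreproducible discovery rate (IDR), a measure of how well replicates repeat a region, and these were the 441 pooled regions of highest signal. Being in this list did not require a top 441 rank in both replicates, so replicate ranks are given for each region. Signal is a score by the authors with no stated scale, so it is given as a rank within its list, with 1 the highest. Read counts are not part of the lists, and depth is therefore unknown. The highest −log10 q in a list was 2.06 (pooled), 2.37 (replicate 1) and 2.06 (replicate 2). The replicates are separate biological samples per the labels.

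Sequences are shown for the start regions of the strongest pair of genes, of the mitochondrial chaperonin and of the ER paralogs *hsp-3* and *hsp-4*, which differed in their start windows. All are 5′ to 3′, from the RefSeq sequence of WBcel235. Capitals mark words searched on both strands. They are the heat shock element pair GAANNTTC or TTCNNGAA, the forkhead words GTAAACA or GTAAATA or ATAAACA or ATAAATA, and the word TGACGTG, a word related to sites of the ER stress factor XBP-1. The region between *F44E5.4* and *F44E5.5* is chrII:11759400-11759531, plus strand, and is the whole deposited region. The *hsp-60* stretch is chrIII:1619060-1619260, plus strand, 100 bp on each side of the summit. The *hsp-3* stretch is chrX:6092125-6092324, minus strand, and the *hsp-4* stretch chrII:7352646-7352845, minus strand, each the 200 bp before the outermost start.
F44E5.4 and F44E5.5: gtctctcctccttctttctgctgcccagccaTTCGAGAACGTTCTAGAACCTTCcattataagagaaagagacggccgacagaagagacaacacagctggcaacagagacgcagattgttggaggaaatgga
hsp-60: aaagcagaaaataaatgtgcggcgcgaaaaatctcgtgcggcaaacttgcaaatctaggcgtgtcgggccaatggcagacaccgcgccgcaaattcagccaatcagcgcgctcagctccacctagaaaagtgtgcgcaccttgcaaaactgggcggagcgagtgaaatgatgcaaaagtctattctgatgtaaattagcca
hsp-3: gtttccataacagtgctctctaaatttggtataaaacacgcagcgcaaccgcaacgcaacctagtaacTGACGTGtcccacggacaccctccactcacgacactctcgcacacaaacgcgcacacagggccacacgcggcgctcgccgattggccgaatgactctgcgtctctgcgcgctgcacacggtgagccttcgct
hsp-4: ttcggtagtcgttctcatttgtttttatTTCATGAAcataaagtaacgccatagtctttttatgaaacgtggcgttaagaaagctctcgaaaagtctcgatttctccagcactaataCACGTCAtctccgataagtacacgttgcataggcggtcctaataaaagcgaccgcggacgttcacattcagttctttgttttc

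The region of highest signal assigned to any of the 9 genes lay between *F44E5.4* and *F44E5.5*, a pair of heat-inducible cytosolic HSP70 genes that point away from each other with 350 bases between them. It ranked 42 in the pooled list, 25 in replicate 1 and 67 in replicate 2, and it passed IDR. Both replicates placed it among their highest 100 regions. Its summit, at 11759471 on chromosome II, was 160 bp upstream of *F44E5.4* and 191 bp upstream of *F44E5.5*, so 1 region is counted for both genes. Of all protein-coding genes, 0.175% had a pooled region of this rank or higher. The deposited region was 132 bp wide, against 390 bp for 29978 of the 30000 pooled regions. Of the 22 pooled regions of another width, 19 were in the IDR list, and an IDR region at the 3′ end of *hsp-1* was 140 bp wide. In replicates 1 and 2 the region between *F44E5.4* and *F44E5.5* was 364 and 400 bp wide, the median widths of those lists. The 132 bp region holds 4 overlapping heat shock element pairs in an unbroken run.

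Inside the *F44E5.4* (II, 11757107 to 11759311) and *F44E5.5* (II, 11759662 to 11761861) genes no list had a summit. The genes are near copies of each other. Of the 36-base words in *F44E5.4*, 98.2% occurred more than once in the genome, and *F44E5.5* held 97.7% of its distinct words. How reads with several matches were treated is not given in the sources used here, and the part of this in the empty gene bodies was not tested. Of the words in the 350 bases between the genes 13.3% recurred, and none of the 97 words in the deposited region itself did.

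The third heat-inducible cytosolic gene, *hsp-70* (I, 9320325 to 9322519), had no region in its start window in the pooled list or in either replicate. Its best pooled region ranked 14330, with ranks 24236 in replicate 1 and 25330 in replicate 2, 268 bp downstream of the start in a coding exon. A second, in a coding exon 1446 bp downstream, ranked 17601 in the pooled list and 9702 in replicate 2, and replicate 1 had no region there. These are the lowest best ranks of the 9 genes in each list. The −log10 q of these pooled regions was 0.15 and 0.12. Low values also occurred at other members, such as 0.54, 0.54 and 0.48 at the pooled regions inside *hsp-6*. Values below those of *hsp-70* occurred at weaker pooled regions of *hsp-110* (0.11, 0.07 and 0.06) and *hsp-4* (0.06). *hsp-70* lies within the span of *uggt-2*, on the opposite strand.

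**Figure D1:**
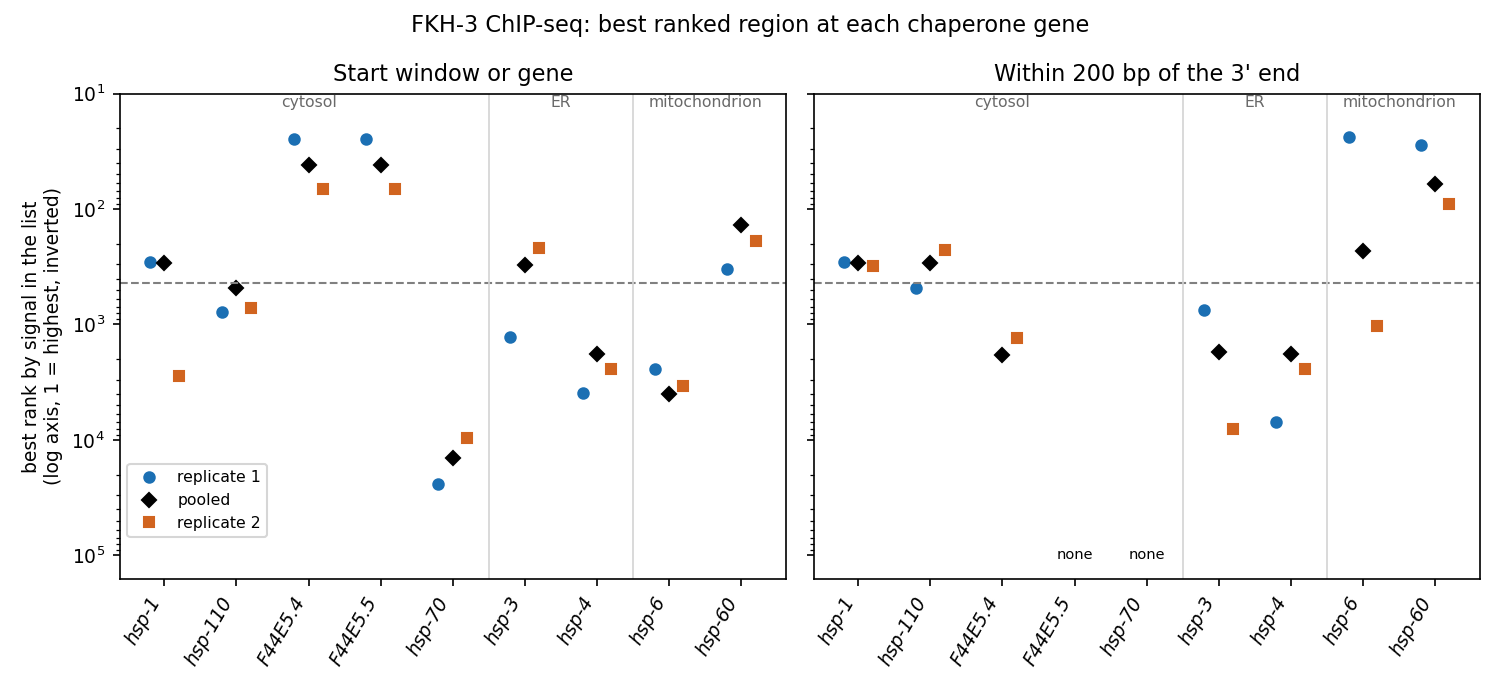
Best rank by signal (vertical log axis, inverted, so that higher points have higher signal) of the regions at each gene in the pooled list and in each replicate, for the start window or gene (left) and for the 200 bp on either side of the annotated 3′ end (right). The dashed line marks rank 441, and genes are grouped by compartment. *F44E5.4* and *F44E5.5* share the region of rank 42 on the left, and *hsp-6* and *hsp-60* reach ranks 24 and 28 in replicate 1 on the right.

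*hsp-1* (IV, 17278959 to 17281330), the constitutive cytosolic HSC70, had 5 pooled regions by the rule, and the only one past IDR was at its far end. That region ranked 296 in the pooled list, 287 in replicate 1 and 311 in replicate 2, with its pooled summit in the 3′UTR, 15 bp before the annotated end. The ranks were close in all 3 lists. The replicate 2 summit fell past the annotated gene, so the best rank assigned to *hsp-1* by the rule in replicate 2 was 2813, that of a region upstream of the start. In the pooled list this upstream region ranked 3120, with its summit at -484 bp, and in replicate 1 it ranked 14185. Of the other 3 regions, all in coding exons, the replicates gave different orders. The one 1470 bp downstream of the start ranked 507 in replicate 1 and 18926 in replicate 2. A snoRNA gene, *F26D10.24*, lies within *hsp-1*, and no *hsp-1* summit was within 100 bp of it.

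*hsp-110* (III, 8443910 to 8446909) encodes the cytosolic HSP110, a relative of HSP70 that acts as its nucleotide exchange factor. Its best region by the rule ranked 481 in the pooled list, just below the IDR threshold, and 775 and 727 in replicates 1 and 2. The summit was in a coding exon, 1741 bp downstream of the start. The replicates thus gave near ranks, both outside their top 441. In its start window the best pooled region ranked 27489, near the bottom of the list. Replicate 1 had one of rank 16959 there and replicate 2 had none. The pooled summit there also lay 410 bp upstream of *rpn-3*, which encodes a subunit of the proteasome and points the other way.

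The ER genes are paralogs that both encode BiP, the HSP70 of the ER lumen. *hsp-3* (X, 6089028 to 6092124), the constitutive form, had an IDR region 111 bp upstream of its outermost start, with the summit at 6092235. It ranked 303 in the pooled list, 1281 in replicate 1 and 219 in replicate 2. Replicate 2 placed it in its top 441 and replicate 1 did not. *hsp-4* (II, 7350112 to 7352645), the form induced by the unfolded protein response, had no region in replicate 2 in any start window. In replicate 1 the best one there ranked 26589. In the pooled list it had 1 there, of rank 27292, in a coding exon 212 bp upstream of an internal start. Its best region ranked 1790 in the pooled list, 7058 in replicate 1 and 2416 in replicate 2, in a coding exon 173 bp before the annotated end.

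The mitochondrial genes also differed at their starts. *hsp-60* (III, 1619742 to 1625803), the mitochondrial chaperonin, had an IDR region upstream, with the summit at 1619160, 582 bp before the nearest start. It ranked 138 in the pooled list, 328 in replicate 1 and 191 in replicate 2, in the top 441 of both. The same summit lay 231 bp upstream of *Y22D7AL.10*, which RefSeq annotates as the mitochondrial 10 kDa heat shock protein, the partner of HSP60. These genes point away from each other with 812 bases between them. A second *hsp-60* region, in a coding exon 1312 bp downstream of its most downstream annotated start, ranked 491, just below the threshold, with 2997 in replicate 1 and 629 in replicate 2.

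*hsp-6* (V, 4824124 to 4826760), the mitochondrial HSP70, had no IDR region by the rule. Its 3 pooled regions ranked 4032, 4040 and 4550, all in coding exons. The best rank by the rule was 2446 in replicate 1 and 3434 in replicate 2, at different regions. In the start window, at 64 bp, the pooled rank was 4040, with 21420 in replicate 1 and 4775 in replicate 2. This summit also lay 664 bp upstream of *C37H5.5*, on the opposite strand.

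Over the 9 genes, 5 had an IDR summit by the rule (*hsp-1*, *hsp-3*, *hsp-60*, *F44E5.4* and *F44E5.5*), from 4 regions, against 1.76% of all protein-coding genes. Longer genes offer more room, and among the 6848 protein-coding genes of 2195 to 6062 bp, the range of the 9, the share was 1.94%. In the start window alone the members were 4, without *hsp-1*, against 0.886%. In the top 441 of replicate 1 they were *hsp-1*, *hsp-60*, *F44E5.4* and *F44E5.5*, 4 against 1.83%. In that of replicate 2 *hsp-3* stood in place of *hsp-1*, 4 against 1.77%. All 9 had a pooled region of any rank, as did 61.6% of protein-coding genes. Since the ranks chose these genes, nothing is read from the distance to the background. The median best rank was 303 for the 9 members and 10071 for the 12305 genes with a pooled region. By pooled rank the order was the *F44E5.4* and *F44E5.5* region, *hsp-60*, *hsp-1*, *hsp-3*, *hsp-110*, *hsp-4*, *hsp-6* and *hsp-70*. Neighbours in that order were not all separated by the replicates. In replicate 1 the order was the opposite for *hsp-60* and *hsp-1* (328 and 287), for *hsp-3* and *hsp-110* (1281 and 775) and for *hsp-4* and *hsp-6* (3947 and 2446). In replicate 2 it was the opposite for *hsp-1* and *hsp-3* (2813 and 219).

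The highest regions of several of these genes sat at the 3′ end, most of them outside the rule because the summit fell past the annotated gene. This position was examined after the data had been seen. Within 200 bp of the annotated 3′ end, 4 of the 9 genes had an IDR summit (*hsp-1*, *hsp-6*, *hsp-60* and *hsp-110*), against 0.525% of all protein-coding genes and 0.555% of those of the same length range. In the top 5000 pooled regions the members were 7, with *hsp-3*, *hsp-4* and *F44E5.4* added, against 3.45%. The −log10 q of the added regions was 0.97, 0.95 and 0.94, in that order. In the top 441 of replicate 1 the members were *hsp-1*, *hsp-6* and *hsp-60*, 3 against 0.56%. In that of replicate 2 they were *hsp-1*, *hsp-60* and *hsp-110*, 3 against 0.57%. With either position counted, 7 of the 9 had an IDR summit, against 2.17%, and *hsp-4* and *hsp-70* had none.

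At *hsp-60* the 3′ region was stronger than the one upstream. Its summit lay 30 bp past the end and it ranked 61 in the pooled list, 28 in replicate 1 and 91 in replicate 2. At *hsp-6* the summit lay 161 bp past the end, with rank 232 in the pooled list, 24 in replicate 1 and 1041 in replicate 2. The *hsp-6* region was thus near the top of one replicate and outside the top 441 of the other. At *hsp-110* it lay 92 bp past the end, with ranks 292, 483 and 228 in the pooled list, replicate 1 and replicate 2. At *hsp-3* it lay 114 bp past the end, with rank 1736 in the pooled list, 745 in replicate 1 and 8082 in replicate 2, so that neither replicate had it in its top 441. At *F44E5.4* it lay 136 bp past the end, with rank 1854 in the pooled list and 1305 in replicate 2, and replicate 1 had no region there. *F44E5.5* and *hsp-70* had no 3′ region in any list. In the windows around these 3′ ends, 36.9% of the 36-base words recurred at *F44E5.4*, 35.5% at *F44E5.5* and 13.1% at *hsp-70*, and none did at the other 6 genes.

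**Figure D2:**
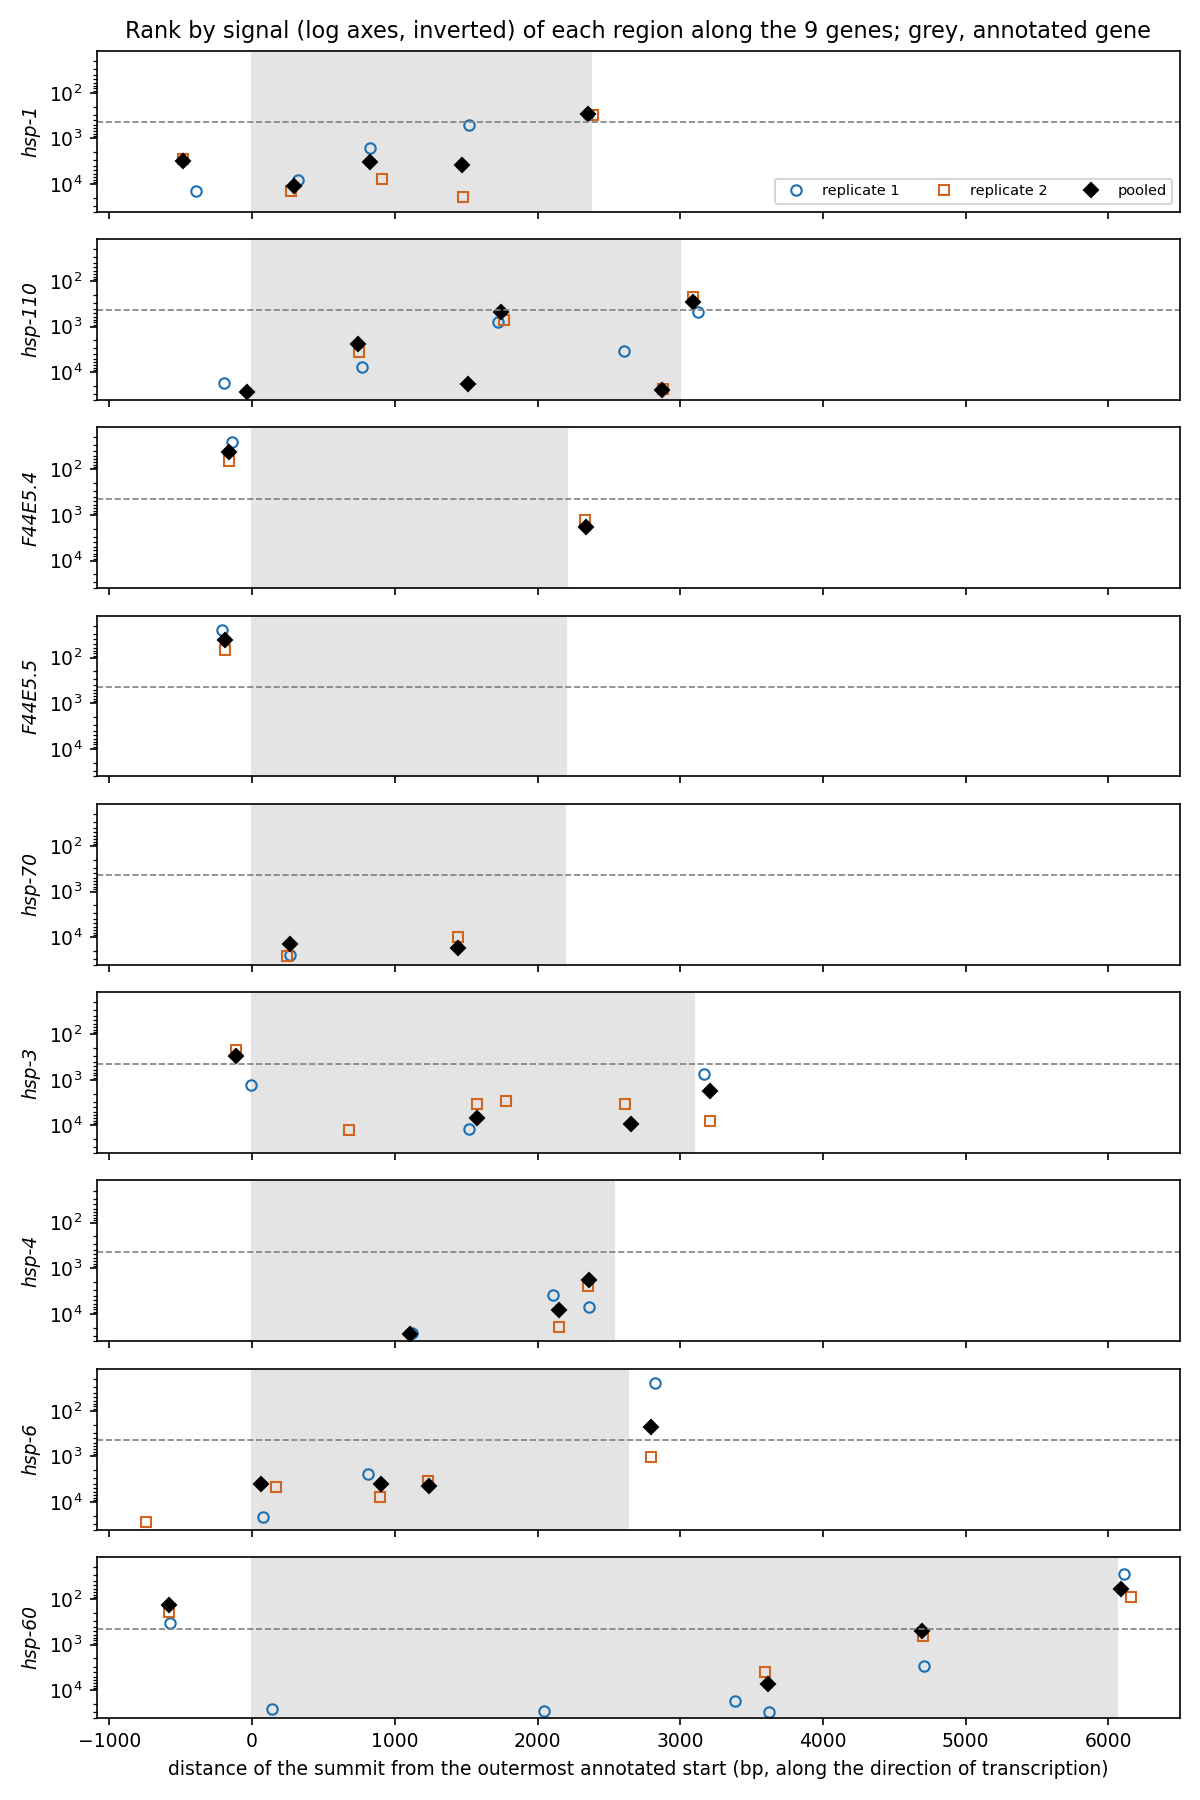
Regions along each of the 9 genes by distance of the summit from the outermost annotated start (horizontal axis, bp) and rank by signal (vertical log axes, inverted), in the pooled list (filled) and in each replicate (open). Grey marks the annotated gene and the dashed line rank 441. In the pooled list the highest points of *hsp-6*, *hsp-60*, *hsp-110* and *hsp-1* are at the right edge of the grey, and those of *F44E5.4*, *F44E5.5* and *hsp-3* are upstream of the left edge.

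Several of these 3′ regions also lay before another gene. The *hsp-6* summit was 540 bp upstream of *adss-1*, which encodes adenylosuccinate synthetase, the *hsp-60* summit 799 bp upstream of *Y22D7AL.4*, which encodes a TFIID subunit, and the *hsp-110* summit 211 bp upstream of *ufbp-1*. All 3 neighbours are on the same strand as the chaperone gene. The *hsp-1* summit was in the start window of no other gene, and its downstream neighbour *nra-1* faces it with 124 bases between the genes. Of the 105 protein-coding genes with an IDR summit within 200 bp of their 3′ end, 35.2% had it in another gene's start window. Whether such a region belongs to the chaperone gene or to its neighbour cannot be told apart here. None of the 30 pooled regions counted at the 9 genes was within 100 bp of a tRNA, snoRNA or snRNA gene.

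**Figure D3:**
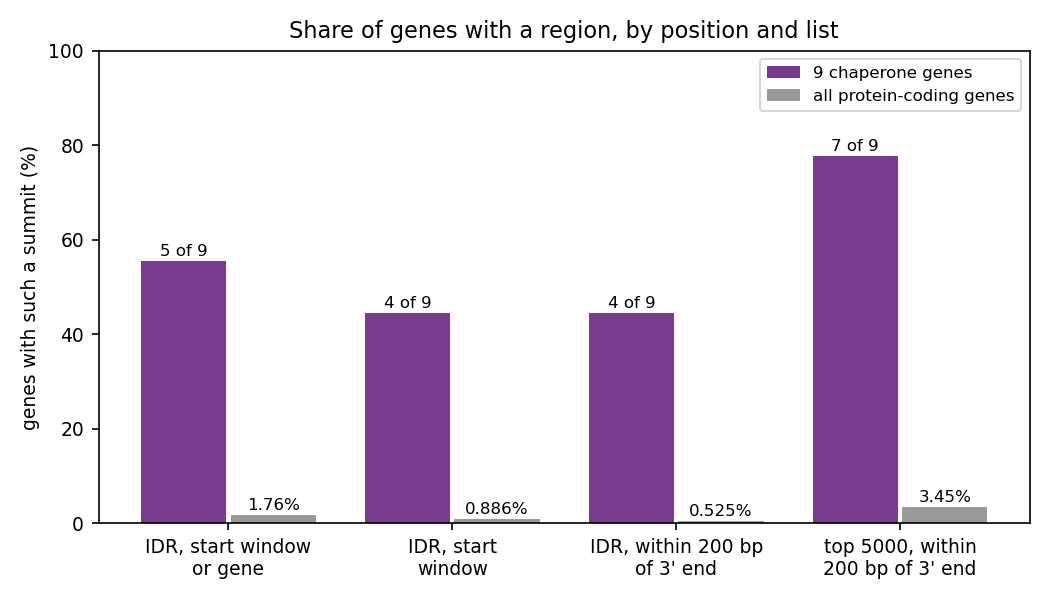
Percentage of genes (vertical axis) with a summit of the named kind, for the 9 chaperone genes and for all 19985 protein-coding genes. The bars stand at 5, 4, 4 and 7 of 9 members against 1.76%, 0.886%, 0.525% and 3.45% of genes, and the members were picked with these ranks known.

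By mode of expression, assigned from general knowledge of these genes, 3 of 5 constitutive members (*hsp-1*, *hsp-3* and *hsp-60*) and 2 of 4 inducible members (*F44E5.4* and *F44E5.5*, with 1 shared region) had an IDR summit by the rule. The share of all protein-coding genes was 1.76%. At the 3′ end the counts were 4 of 5 constitutive members, all but *hsp-3*, and 0 of 4 inducible members, against 0.525% of all protein-coding genes. At so low a share, 0 of 4 genes is the usual count. The 3′ summits of *hsp-6*, *hsp-60* and *hsp-110* also lay in the start window of a neighbouring gene. *hsp-6* and *hsp-60* are made without stress and also induced by it, and with both counted as inducible the 3′ end counts were 2 of 3 constitutive and 2 of 6 inducible members. The inducible members covered both ends of the range, with best pooled ranks of 42, 42, 1790 and 14330. The constitutive members ran from 138 to 4032. By compartment the rule gave 3 of 5 cytosolic genes, 1 of 2 ER genes and 1 of 2 mitochondrial genes, again beside 1.76% of all protein-coding genes. With so few genes no class is said to differ from another.

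Heat shock element pairs were frequent in the *F44E5* region, with 7 matches within 100 bp of its summit, overlapping matches included. A run that continues with a further unit at the same spacing, a triple, occurred 4 times there. A triple was within 100 bp of 0.98% of all 30000 pooled summits and 1.59% of the 441 IDR summits, and a pair at 20.8% and 16.8%. Of the 7 IDR regions at the 9 genes, counting 3′ ends, 3 had a pair (*F44E5*, and the 3′ regions of *hsp-60* and *hsp-110*) and 1 had a triple. The 200 bp upstream of *hsp-70*, which had no region in its start window, held 3 pairs and 1 triple, and those of *hsp-1* and *hsp-110* held 2 pairs and 1 triple each. Those of *hsp-4* held 1 pair and no triple, and those of *hsp-3*, *hsp-6* and *hsp-60* held neither. A pair was in the same 200 bp of 21.9% of the 19877 protein-coding genes searched, and a triple in those of 1.23%. At *F44E5.4* these 200 bp held 8 pairs and 6 triples, and at *F44E5.5* 6 pairs and 4 triples, overlapping matches included. The windows of these neighbours overlap. Any link between the words and the regions was not tested.

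A forkhead word was within 100 bp of 1 of these 7 IDR summits, at the 3′ end of *hsp-110*, with 2 matches. The share was 13.7% of pooled summits and 12% of IDR summits. The 200 bp upstream held a forkhead word at *hsp-110* alone among the 9 genes, and at 26.5% of protein-coding genes. TGACGTG was in the IDR region of *hsp-3* and in the upstream 200 bp of *hsp-3* and *hsp-4*, against 2.13% of pooled summits and 2.03% of upstream windows. At *hsp-3* the same match is counted in both places. The ER paralogs differ in the listed regions at their starts, and any part of TGACGTG in this was not tested. Over the 7 IDR regions the GC content within 100 bp of the summit ran from 29.9% at the 3′ end of *hsp-6* to 58.2% upstream of *hsp-3*, with a median of 44.8% over the IDR list. A word match is a description of letters and not of a binding site.

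Other genes of protein folding and stress were counted from 8 lists, in which 95 of 100 symbols matched the annotation. By the same rule 6 had an IDR summit, 1 in each of 6 lists, against 1.76% of all protein-coding genes. *dnj-13*, a cytosolic DnaJ cochaperone that stimulates HSP70, had one at -200 bp from its start, with rank 108 in the pooled list and ranks 179 and 127 in replicates 1 and 2. *cct-8*, a subunit of the cytosolic CCT chaperonin, had one at -448 bp, with ranks 92, 363 and 76. *Y22D7AL.10* shared the *hsp-60* region. *T24H7.2*, the HYOU1-like HSP70 of the ER, had rank 169 in the pooled list, with 169 in replicate 1 and 348 in replicate 2, inside the gene and within 100 bp of the snoRNA gene *T24H7.6*. *hip-1*, an HSP70-interacting cochaperone, had rank 254 in the pooled list, with 10276 in replicate 1 and 148 in replicate 2. *daf-16*, a forkhead factor of the insulin pathway, had rank 304 in the pooled list, with 625 in replicate 1 and 361 in replicate 2, inside the gene. The small heat shock proteins (14 matched) and the HSP90 genes (3) had none. The highest small heat shock gene was *F08H9.3*, with rank 695 in the pooled list, 7429 in replicate 1 and 522 in replicate 2, and its summit was within 100 bp of the snRNA gene *F08H9.10*. The highest HSP90 gene was *hsp-90*, the cytosolic form, with rank 723 in the pooled list, 3520 in replicate 1 and 602 in replicate 2.

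At the 3′ end 4 of the 95 genes had an IDR summit, against 0.525% of all protein-coding genes. That of *xbp-1*, the ER stress factor that induces *hsp-4*, lay 139 bp past the end with ranks 89, 110 and 130 in the pooled list, replicate 1 and replicate 2, away from small RNA genes. Those of *dnj-5*, *unc-45* and *timm-23* were within 100 bp of a tRNA or snoRNA gene. In the pooled list, replicate 1 and replicate 2 the ranks were 229, 366 and 381 for *dnj-5* and 70, 48 and 95 for *unc-45*. For *timm-23* they were 300, 2610 and 251, so that replicate 1 had it outside its top 441. Of all the genes outside the 9, those whose best ranks in the 2 replicates lay nearest those of *F44E5.4* (log10 ranks, Euclidean distance) were *Y75B12B.11* at 0.11, *Y22D7AL.4* at 0.14, through the region at the 3′ end of *hsp-60*, and *cpr-9* and *gcy-33*, tied at 0.22. The summits of *Y75B12B.11*, *cpr-9* and *gcy-33* were within 100 bp of a snoRNA or tRNA gene.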

How the data were processed

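ChIP-seq region lists in narrowPeak format on ce11 were used, 1 for each of 2 replicates, with 1 list and its IDR subset for the pooled replicates. Per the file listings deposited with the samples, the authors derived the lists from alignments on ce11 and a control, which was not analysed here. Which aligner and which peak caller were run is not given in the sources used here. As deposited, signal is a score of unstated scale, used only as a rank within its list. Each deposited list also gives a q-value as −log10 and a summit. The ce10 lists were not used. Read depth is unknown, and with it the precision of a rank.

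Summits were assigned to Ensembl 115 gene models of WBcel235, the assembly ce11 names, with Python 3.11.15, numpy 2.4.6, pandas 2.3.3 and matplotlib 3.10.9. A pooled region was matched in a replicate by the region of highest signal containing its summit. Recurrence of 36-base words was counted on both strands of the RefSeq sequence. The assignment was tested on simulated data. The genes, classes and lists were chosen with earlier results of these data known, and the 3′ end position after the regions were seen. All 9 members are named. Of the other lists, genes with an IDR summit and the highest gene of each list are named, as are genes sharing a member's region. No test was made, because the ranks chose the members, and the share of all protein-coding genes is given in its place.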

Additional observations from a re-analysis of the deposited data

How the results depend on the processing

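The count of 5 members with an IDR summit was 4 with a start window of 500 bp upstream to 100 bp downstream and with the start window only, 7 with any base of a region in place of its summit, and 5 with the wider window and without regions at small RNA genes. It was 3 in the 220 highest IDR regions and 8 in the top 5000 pooled regions. Leaving out each replicate gave 4 to 4. The share of all protein-coding genes was not computed for the 220 highest IDR regions or the top 5000 by the rule. Nor was it for the narrower and wider windows, any base of a region, or without regions at small RNA genes. These counts therefore stand without a background and nothing is read from them. The median best rank of 303 was 481 with the narrower window, 1711.5 with the start window only, where 8 members had a region, and 727 to 775 leaving out each replicate. The narrower window loses the upstream *hsp-60* region, and the start window only loses the 3′ region of *hsp-1*. The 4 members with an IDR summit at the 3′ end were 3 within 100 bp, 4 within 500 bp, 7 in the top 5000, and 3 to 3 leaving out each replicate, all settings added once the data were known. The share of all protein-coding genes was 0.195% within 100 bp and 1.34% within 500 bp, against 0.525% within 200 bp. In the top 5000 it was 3.45%, and in the top 441 of replicates 1 and 2 it was 0.56% and 0.57%. The other chaperone and stress genes were 5 to 8 leaving out each replicate, against 1.83% of protein-coding genes in replicate 1 and 1.77% in replicate 2. With 250 bp on each side of the summit, 2 of the 7 IDR regions had a heat shock element triple and 2 a forkhead word. At this width the shares were 3.85% and 38.1% of the 441 IDR summits, and 2.75% and 32.7% of pooled summits. Of 44 single best ranks under other settings, 12 moved by more than the replicates' SD. The 44 include the replicate ranks that set this SD, and the region shared by *F44E5.4* and *F44E5.5* enters for each gene. The count therefore does not measure how robust the ranks are. With *hsp-6* and *hsp-60* counted as inducible, 2 constitutive members had an IDR summit by the rule, and 2 in place of 4 at the 3′ end. No paired analysis was possible because all samples form 1 group. Read depth, which the lists do not give, limits how far a region absent from one replicate can be read.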
